A study of Mus musculus with 12 samples.

Results

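The inflammasome and pyroptosis genes described here are 9 genes, selected by symbol among the 54532 Ensembl features of the expression table: the sensors Nlrp3, Nlrc4, Aim2 and Mefv, the adaptor Pycard, the caspases Casp1 and Casp4, the pore former Gsdmd and the cytokine antagonist Il18bp. All 9 were found, each once. They were measured by RNA-Seq in abdominal aortas of 12 male mice, 3 in each of 4 groups, with 1 poly(A)-selected library per mouse. The groups were CCN2fl/fl mice given saline (CFS) or Ang II (CFA), and CCN2SMCΔ mice given saline (CSS) or Ang II (CSA). Ang II was infused at 500 ng/kg/min and tissue was taken at day 7. All 4 groups carried the floxed Ccn2 allele and, per the study's methods, received 5 daily doses of tamoxifen from 8 weeks of age and a washout of 2 weeks. CCN2fl/fl controls had no Cre, and CCN2SMCΔ mice carried Myh11-Cre-ERT2, which is driven by a smooth muscle cell (SMC) promoter, so Ccn2 in other cells of the wall was not targeted.

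An inflammasome is a protein complex that assembles in the cytosol when a sensor meets a danger signal. The sensor recruits the adaptor ASC, which gathers and activates caspase-1, and caspase-1 then matures IL-1β and IL-18 and cleaves gasdermin D, whose fragment opens pores in the plasma membrane and can end in a lytic death called pyroptosis. The machinery is best known from macrophages and neutrophils, and much of its control lies in protein assembly and cleavage, which mRNA levels do not measure.

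Values are FPKM, a fragment count scaled for exon length and library size. Depth, recovered from the FPKM steps, was 14555508 to 23102751 fragments per library, lowest in CSA mouse 03. The targeted gene Ccn2 was at 254.9 to 399 FPKM in CSA against 564 to 1105 in CFA, a log2 fold change of -1.41 ± 0.34 (SE; limma, Benjamini-Hochberg adjusted p = 0.00622), and at 436 to 640 in CSS against 480 to 1108 in CFS, where the groups overlapped (limma adjusted p = 1). The labelled tissue carried its markers, the 8 smooth muscle markers summing to 7752 to 10366 FPKM in both saline groups, 5589 to 8467 in CFA and 801 to 961 in CSA. The 4 leukocyte markers (Ptprc, Cd53, Coro1a, Laptm5) summed to 16.5 to 24.8 FPKM in the saline groups, 22.3 to 63.0 in CFA and 369 to 398 in CSA. In whole tissue, fewer cells of a type and less RNA per cell cannot be told apart. Each library is 1 mouse. The p-values set differences against the spread between mice, which limma pooled over all 4 groups.

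The promoters of the members are described before the values. RefSeq promoters on GRCm38.p6, from 250 bases before to 50 after the start, matched 8 of 9 members, 10 promoters in all. A κB match (GGGRNNYYCC, the letters of the NF-κB motif) was found in promoters of 2 members, Nlrp3 and Casp4, each of which had 2 promoters. Of 32851 RefSeq promoters of the same length, 8.46% held a match, which is a share of promoters and not of genes. The Nlrp3 promoter is chr11:59541319-59541618 and that of Casp4 chr9:5308599-5308898, both on the + strand. They are shown because they carry that match, with the matched letters in capitals, at -186 from the start in Nlrp3 and at -93, -92 (overlapping) and, on the other strand, -39 in Casp4.
Nlrp3: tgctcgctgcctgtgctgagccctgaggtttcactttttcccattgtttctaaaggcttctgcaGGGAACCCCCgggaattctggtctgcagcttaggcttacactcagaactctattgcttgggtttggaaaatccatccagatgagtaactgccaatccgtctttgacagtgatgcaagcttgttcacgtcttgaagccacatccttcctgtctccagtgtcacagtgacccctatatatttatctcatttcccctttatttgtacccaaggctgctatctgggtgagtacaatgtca
Casp4: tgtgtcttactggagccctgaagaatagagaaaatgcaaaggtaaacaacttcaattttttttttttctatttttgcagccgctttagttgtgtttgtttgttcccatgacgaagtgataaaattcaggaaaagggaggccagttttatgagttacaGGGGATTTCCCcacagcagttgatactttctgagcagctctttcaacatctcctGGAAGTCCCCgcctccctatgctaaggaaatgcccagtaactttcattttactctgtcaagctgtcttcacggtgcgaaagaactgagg
A second Casp4 promoter overlaps this one, and a second Nlrp3 promoter held no κB match. The letters of PU.1, a myeloid factor (GAGGAA, either strand), occurred in promoters of Nlrp3, Aim2, Pycard and Casp1 and in 28.3% of all promoters. The ISRE core (3.44% of all promoters), AP-1 (TGANTCA, 7.81%) and the TATA box (TATAAA, 13.6%) had no match in these windows. A match is a description of letters and not a site of binding, which was not measured.

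Between genotypes under Ang II, sensors, caspases, the pore former and the IL-18 antagonist were called higher in CSA aortas, and the adaptor Pycard was not called. Of the 9 members, 8 were called higher in CSA than in CFA, that is, with a limma adjusted p under 0.05 and a log2 fold change over 1.5, where 8.95% of the 14676 tested features were. Nlrp3 was 16.9-fold, Mefv 29.8-fold and Aim2 9.004-fold higher on the log2(FPKM + 0.1) scale, and Casp1, Casp4 and Gsdmd 3.79-fold, 3.98-fold and 2.84-fold. The sizes of the first 3, which were low in CFA, depend on the pseudocount, with log2 fold changes of 2.90 for Nlrp3, 3.32 for Mefv and 2.39 for Aim2 at a pseudocount of 1, against 4.08, 4.90 and 3.17. The 3 CSA mice lay above the 3 CFA mice for 9 of 9 members, against 23.4% of tested features. The members' median log2 fold change was 1.99, beside -0.04 over all tested features. Nlrp3, Nlrc4, Aim2 and Mefv passed the filter of at least 1 FPKM in 3 libraries only through their CSA values, so that being tested already required a high CSA level, and these counts are given as a description.

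**Figure D1:**
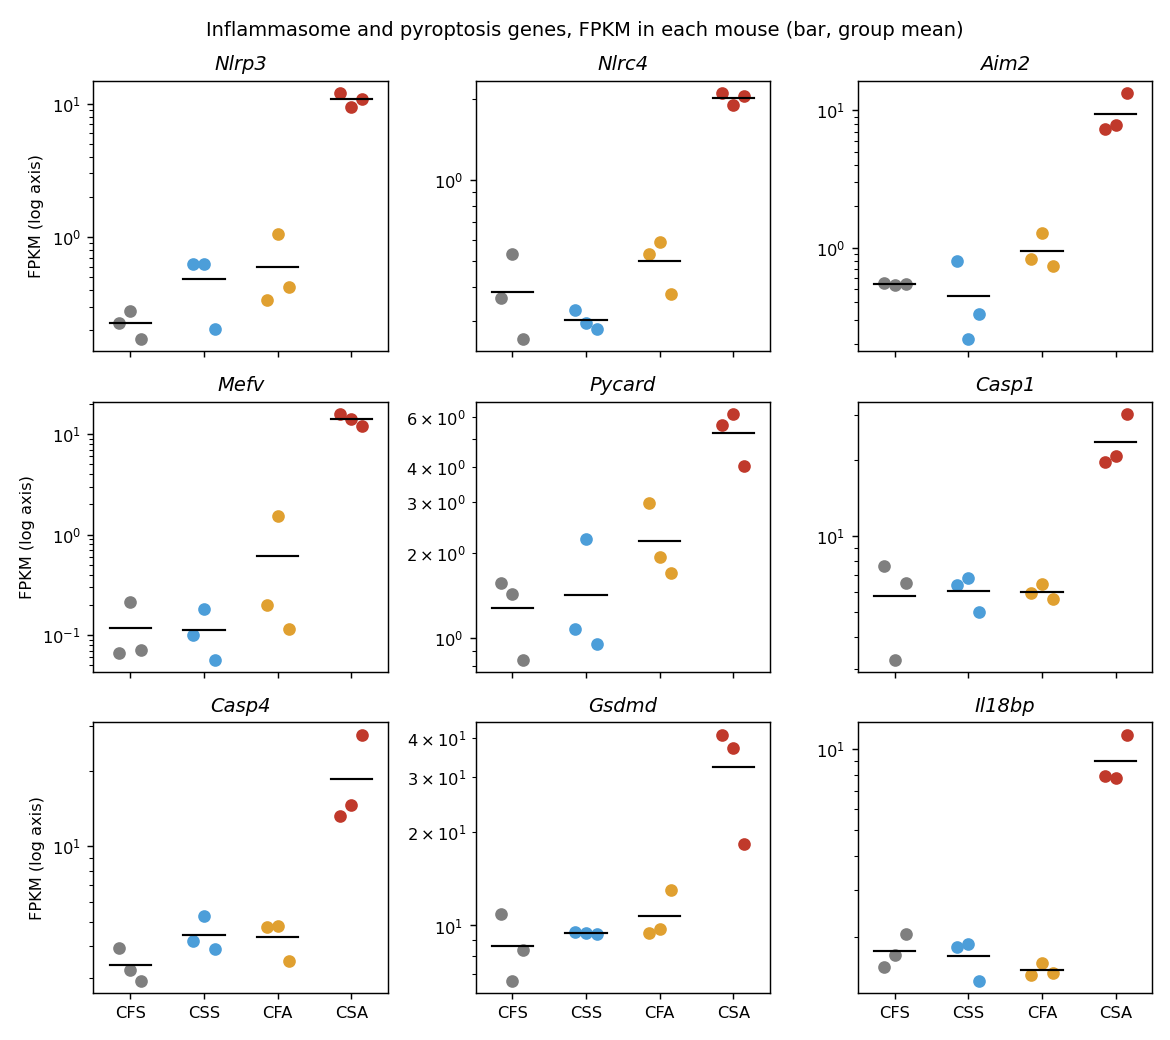
FPKM on a log axis of the 9 members in each of the 12 mice, by group (CFS, CSS, CFA and CSA; points are mice and bars are group means). In every panel the 3 CSA mice sit above the other 9, and in the Mefv panel CFA holds 1 mouse at 1.52 FPKM above 2 at 0.116 and 0.198.

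Mefv, Nlrp3 and Aim2 had the largest log2 fold changes of the 9 members from CFA to CSA. Nlrp3 (ENSMUSG00000032691, GRCm38 chr11:59541568-59566956, + strand) encodes the sensor that answers to potassium efflux and other signs of membrane damage, and its transcription is known to be induced by NF-κB during priming. Nlrp3 was at 0.227, 0.277 and 0.172 FPKM in the CFS mice, 0.623, 0.625 and 0.204 in CSS, 0.339, 1.05 and 0.419 in CFA, and 11.9, 9.49 and 10.8 in CSA. The lowest CSA mouse was thus far above the highest CFA mouse, and the 3 CSA mice were close to each other. The log2 fold change was 4.08 ± 0.43 against CFA (SE, n = 3 per group; limma adjusted p = 2.8e-05) and 4.32 against CSS (adjusted p = 1.4e-05).

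Mefv (ENSMUSG00000022534, chr16:3707218-3718097, - strand) encodes pyrin, a sensor found in neutrophils and monocytes. Mefv was at 0.0666, 0.214 and 0.0713 FPKM in CFS, 0.0993, 0.183 and 0.0565 in CSS, 0.198, 1.52 and 0.116 in CFA, and 15.9, 14.2 and 12.04 in CSA. Both saline groups rested on 4 to 13 fragments per library, near the lower limit of detection, and CSA on 600 to 1048. Mefv had the largest fold change of the 9 members in both Ang II comparisons, 4.90 ± 0.65 against CFA (limma adjusted p = 1.5e-04) and 6.09 against CSS (limma adjusted p = 2.4e-05), and it moved from the lowest level of the members in CFS to the 4th of 9 in CSA by FPKM (6th per coding transcript).

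Aim2 (ENSMUSG00000037860, chr1:173350879-173466040, + strand) encodes a sensor of cytosolic double-stranded DNA. Its levels were 0.556, 0.534 and 0.547 FPKM in CFS, 0.799, 0.216 and 0.328 in CSS, 0.826, 1.28 and 0.741 in CFA, and 7.32, 7.78 and 13.3 in CSA. Aim2 was 3.17 ± 0.38 higher in log2 terms in CSA than in CFA (limma adjusted p = 7.9e-05), with the mouse at 13.3 FPKM being CSA mouse 03. Nlrc4 (ENSMUSG00000039193, chr17:74425438-74459142, - strand) encodes the partner of the NAIP receptors for flagellin and bacterial secretion proteins, and it was the least abundant member in CSA. It was at 0.366, 0.531 and 0.257 FPKM in CFS, 0.330, 0.297 and 0.282 in CSS, 0.534, 0.588 and 0.379 in CFA, and 2.09, 1.89 and 2.04 in CSA. Its difference from CFA was the smallest of the 4 sensors, 1.83 ± 0.31 (limma adjusted p = 7.8e-04), and was 1.01 with a pseudocount of 1, under the fold limit.

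Pycard (ENSMUSG00000030793, chr7:127989708-127993867, - strand) encodes ASC, the adaptor between sensor and caspase-1, and it had the smallest log2 fold change of the 9 members from CFA to CSA. Pycard was at 1.57, 1.43 and 0.839 FPKM in CFS, 1.08, 2.23 and 0.955 in CSS, 2.98, 1.93 and 1.69 in CFA, and 5.61, 6.13 and 4.02 in CSA. The CSA mice were above all others, but the log2 fold change against CFA of 1.24 ± 0.35 (limma adjusted p = 0.0154) was short of the fold limit, and other settings gave adjusted p-values between 0.00635 and 0.0616. Against CSS it was called, at 1.89 (limma adjusted p = 0.00109), but with a pseudocount of 1 it was at 1.39, under the fold limit. Of its exonic bases, 12.8% are shared with Gm45205 on the opposite strand, and without strand the fragments of both cannot be told apart.

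The caspases are neighbours. Casp1 (ENSMUSG00000025888, chr9:5298517-5307265) and Casp4 (ENSMUSG00000033538, chr9:5308828-5336783) lie side by side on the + strand, followed by Casp12. Casp1 encodes the protease of the canonical inflammasome, and mouse Casp4, also called caspase-11, binds cytosolic lipopolysaccharide directly and cleaves gasdermin D. Casp1 was at 7.63, 3.25 and 6.55 FPKM in CFS, 6.40, 6.85 and 5.00 in CSS, 5.95, 6.45 and 5.67 in CFA, and 19.6, 20.6 and 30.3 in CSA. Casp4 was at 3.95, 3.23 and 2.92 FPKM in CFS, 4.19, 5.26 and 3.91 in CSS, 4.78, 4.83 and 3.497 in CFA, and 13.2, 14.6 and 27.8 in CSA. Both genes were above the 4 sensors in every saline library, and both were highest in CSA mouse 03. Casp1 rose by 1.92 ± 0.29 (log2, limma adjusted p = 3.1e-04) and Casp4 by 1.99 ± 0.27 (limma adjusted p = 1.5e-04) from CFA to CSA. The adjacent Casp12 was at a mean of 19.0 FPKM in CFA and 18.2 in CSA, a log2 difference of -0.08 ± 0.19 (limma adjusted p = 0.781).

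Gsdmd (ENSMUSG00000022575, chr15:75862327-75867408, + strand), which encodes the pore former, had the highest mean FPKM of the 9 in every group. Its levels overlapped those of Casp1 between mice in CFS and CSA. Gsdmd was at 10.9, 6.66 and 8.34 FPKM in CFS, 9.55, 9.49 and 9.36 in CSS, 9.48, 9.71 and 12.96 in CFA, and 40.9, 37.2 and 18.3 in CSA. CSA mouse 03 was the low one here and still exceeded every mouse of the other groups. The log2 fold change against CFA was 1.505 ± 0.28 (limma adjusted p = 0.00147), just over the limit. It went below the limit without CFA mouse 71 (1.43), CFA mouse 72 (1.44), CSA mouse 01 (1.29) or CSA mouse 02 (1.36) and with a pseudocount of 1 (1.43), and reached 1.87 without CSA mouse 03.

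Il18bp (ENSMUSG00000070427, chr7:102014885-102018690, - strand) encodes a secreted decoy that binds IL-18 and keeps it from its receptor. It was at 1.56, 1.71 and 2.05 FPKM in CFS, 1.85, 1.89 and 1.38 in CSS, 1.46, 1.60 and 1.48 in CFA, and 7.94, 7.84 and 11.3 in CSA. The 3 groups other than CSA were nearly level. Il18bp rose by 2.48 ± 0.19 (log2, limma adjusted p = 4.3e-06) from CFA to CSA, with the smallest standard error of the 9 members.

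**Figure D2:**
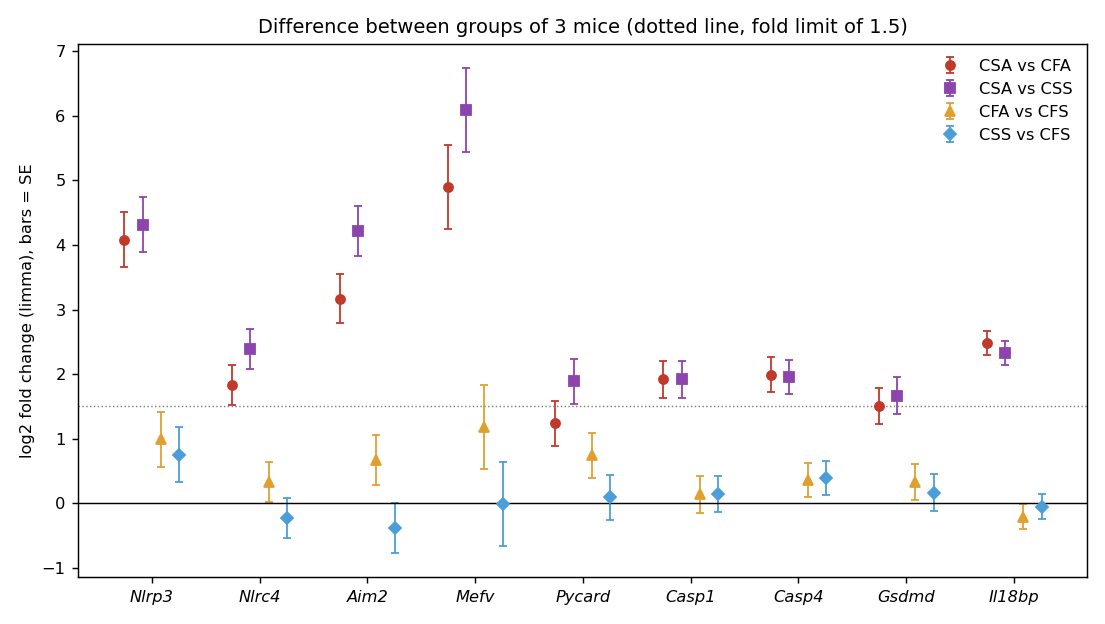
Log2 fold change (limma, bars are SE) of the 9 members in 4 comparisons of 3 mice with 3 mice, with the fold limit of 1.5 as a dotted line. The CSA points lie from 1.24 (Pycard, against CFA) to 6.09 (Mefv, against CSS), and the points of CFA against CFS and CSS against CFS lie below the limit.

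Ang II was then compared with saline within each genotype. In CCN2SMCΔ mice, 9 of 9 members were called higher in CSA than in CSS, beside 10.9% of tested features, with log2 fold changes from 1.67 (Gsdmd) to 6.09 (Mefv). With a pseudocount of 1 the values against CSS were 3.75 for Mefv, 2.99 for Nlrp3 and 2.83 for Aim2. At that setting 7 members were called, with Nlrc4 (1.21) and Pycard (1.39) under the fold limit. Gsdmd fell under the limit without CSA mouse 01 (1.45). Nlrp3, Nlrc4, Aim2 and Mefv were tested only through their CSA values here as well. The 3 CSA mice lay above the 3 CSS mice for 9 of 9 members, where 26.3% of tested features did so. In CCN2fl/fl mice, 0 of 9 were called between CFA and CFS in either direction by limma, beside 0.0273% of tested features, and 1 of 9, Nlrp3, had an unadjusted p under 0.05 (log2 fold change 0.99, limma adjusted p = 0.503), as did 9.42% of tested features. Nlrp3, Aim2 and Pycard were higher in the 3 CFA mice than in the 3 CFS mice, and 9.44% of tested features were. The comparisons of CSA with CFA and with CSS share the CSA libraries, and those of CFA and CSS share the CFS libraries.

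The genotypes were also compared without Ang II, where the Ccn2 levels of both groups overlapped. Between CSS and CFS, 0 of 9 members were called in either direction by limma, beside 0.0136% of tested features, and 0 of 9 had an unadjusted p under 0.05, beside 6.3%. The groups overlapped for all 9, and log2 fold changes ran from -0.38 (Aim2) to 0.75 (Nlrp3). The interaction, which tests whether the genotype difference under Ang II exceeds that under saline, was called higher for 7 of 9 members, beside 7.89% of tested features, and 4 of these 7 were tested only through their CSA values. With a pseudocount of 1 the calls of Nlrc4 (1.09) and Casp4 (1.48) were lost, and that of Casp4 also without CFS mouse 68 (1.48), CFA mouse 74 (1.45) or CSA mouse 03 (1.27) and with array weights (1.28). With no fold limit 8 of 9 had a limma adjusted p under 0.05, beside 12.8% of tested features in the same direction. Among these 8, Gsdmd had limma adjusted p-values from 6.7e-05 to 0.073 over other settings. They included 0.0609 without CFA mouse 72 and 0.0563 with no filter. The interaction was 3.33 ± 0.60 for Nlrp3 (limma adjusted p = 0.00232), 4.91 ± 0.92 for Mefv (limma adjusted p = 0.00288) and 2.54 ± 0.27 for Il18bp (limma adjusted p = 1.2e-04). Gsdmd, at 1.34 (limma adjusted p = 0.0296), was short of the fold limit, and Pycard, at 1.15 (limma adjusted p = 0.115), passed neither limit.

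The order of levels changed with the group. In CFS it ran from Gsdmd, Casp1 and Casp4 through Il18bp and Pycard to Aim2, Nlrc4, Nlrp3 and Mefv. In CSA the mean FPKM was 32.1 for Gsdmd, 23.5 for Casp1, 18.5 for Casp4, 14.0 for Mefv, 10.7 for Nlrp3, 9.47 for Aim2, 9.03 for Il18bp, 5.25 for Pycard and 2.01 for Nlrc4. Neighbours in that order overlapped between mice, except that Mefv lay above Nlrp3, Il18bp above Pycard and Pycard above Nlrc4 in every mouse. FPKM was divided by the length of all annotated exons together, which for Casp4 is 4.13 times and for Gsdmd 2.65 times the median coding transcript. Per coding transcript, Casp4 would rank 2nd of 9 in CSA, Aim2 and Il18bp 4th and 5th, and Mefv and Nlrp3 6th and 7th.

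The order of the mice differed between groups. CSS mouse 56 was the lowest of its group for 8 of 9 members and CFA mouse 72 the highest for 7 of 9, whereas CSA mouse 03 was the highest for 4 and the lowest for 3. CSA mouse 03 was 2.004 times the mean of CSA mice 01 and 02 for Casp4, 1.76 times for Aim2, 1.51 times for Casp1 and 1.43 times for Il18bp. The same mouse was at 0.468 of that mean for Gsdmd, 0.685 for Pycard and 0.802 for Mefv, and at 1.01 and 1.02 for Nlrp3 and Nlrc4. Its macrophage marker sum was the lowest in CSA (1173 FPKM, against 1606 and 1653), its leukocyte marker sum was between the others (384, against 369 and 398), its neutrophil marker sum was the highest (581, against 529.6 and 542), and its library was the shallowest. In CFA, mouse 72 was 9.70 times the mean of mice 71 and 74 for Mefv, 2.76 times for Nlrp3 and 1.63 times for Aim2, but 1.29 times for Nlrc4, 1.17 times for Casp4, 1.11 times for Casp1, 1.09 times for Il18bp, 0.866 for Gsdmd and 0.828 for Pycard. That mouse also had the highest leukocyte marker sum of CFA, 63.0 FPKM against 22.3 and 25.8. Without CFA mouse 72 the log2 fold changes of CSA against CFA were 5.79 for Mefv, 4.5 for Nlrp3 and 3.39 for Aim2.

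**Figure D3:**
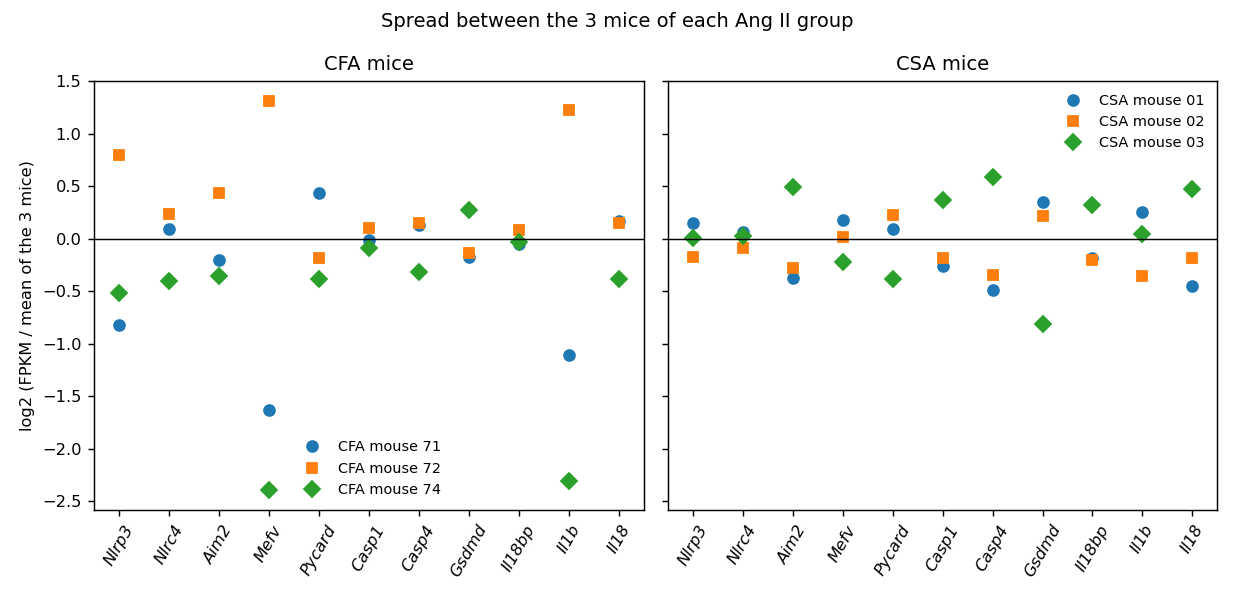
Log2 of each mouse's FPKM over the mean of its 3-mouse group, for the 9 members, Il1b and Il18, in CFA (left) and CSA (right). CFA mouse 72 stands above its group for Mefv, Nlrp3 and Il1b, and CSA mouse 03 stands above for Casp4 and Aim2 and below for Gsdmd.

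Markers of several cell types moved with the members. Between CFA and CSA, 4 of 4 leukocyte, 9 of 10 macrophage, 6 of 6 T cell and 9 of 9 tested neutrophil markers were called higher. Dendritic cell markers had 2 of 5 and B cell markers 1 of 2 tested genes called higher. The macrophage marker Mertk (log2 -0.73, limma adjusted p = 0.0185) was lower in CSA, under the fold limit. So was the dendritic cell marker Zbtb46 (-0.80, limma adjusted p = 0.00158). All 6 T cell, 6 neutrophil, 2 dendritic cell, 2 B cell and 1 macrophage markers were tested only through their CSA values. Called lower were 8 of 8 smooth muscle, 5 of 5 erythrocyte, 2 of 5 endothelial and 2 of 5 adipocyte markers. Of 6 fibroblast markers limma called 0, with 4 at an unadjusted p under 0.05 that went in both directions. Lum (log2 1.44) and Col1a1 (0.96) were higher in CSA, and Pi16 (-1.17) and Dpt (-1.13) were lower. The 6 summed to 2204 to 2428 FPKM in CFA and 3559 to 4248 in CSA, with Col1a1 at means of 1439 and 2823. The 10 macrophage markers summed to 179 to 396 FPKM in CFA and 1173 to 1653 in CSA, and the 10 neutrophil markers to 11.2 to 28.02 and 529.6 to 581, with Ngp at 0 in all 3 CFA libraries and Ly6g at 0 in CFA mouse 74 and in CSA mice 02 and 03. The part of cell numbers in the member results was not tested. The members were also set beside the mean log2 level of the 4 leukocyte markers, which was 3.54 higher in CSA. Nlrp3, Nlrc4, Aim2 and Mefv passed the filter only through their CSA values, so the comparisons with markers are given as a description. The 9 tested neutrophil markers had a median log2 fold change of 4.79, near that of Mefv (4.90) and above that of Nlrp3 (4.08), and 6 of them were tested only through their CSA values. Beside the leukocyte markers, Mefv and Nlrp3 differed by more, by 1.36 and 0.54, with the 3 CSA mice above the 3 CFA mice. Nlrc4, Casp1, Casp4, Gsdmd and Pycard differed by less, at -1.71, -1.62, -1.55, -2.03 and -2.30, with the 3 CSA mice below. In each of these 7 the two-sided exact permutation p was 0.1, the smallest that 3 against 3 allows, and 0.129 after adjustment over 9 tests, so no difference reached the threshold. Aim2 (-0.37, exact p = 0.3) and Il18bp (-1.06, exact p = 0.2) overlapped between groups. With a pseudocount of 1 the Nlrp3 value turned to -0.39, and that of Mefv came to 0.03. The mean log2 level of the 10 macrophage markers was 2.68 higher in CSA, with single markers from -0.73 (Mertk) to 5.24 (Fcgr1). Beside that mean, Mefv and Nlrp3 again lay above (2.21 and 1.40) and Pycard and Nlrc4 below (-1.45 and -0.85). Each of these had an exact permutation p of 0.1 (0.225 after adjustment over 9 tests). Casp1, Casp4, Gsdmd, Aim2 and Il18bp overlapped between groups on that measure, with exact permutation p-values from 0.2 to 0.8.

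**Figure D4:**
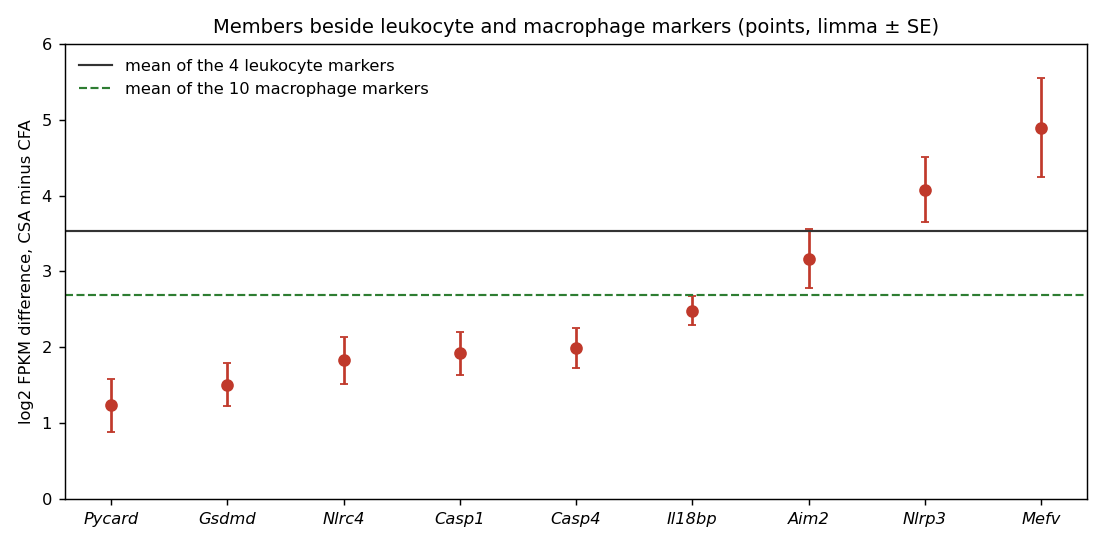
Log2 FPKM difference between CSA and CFA for each member (points, limma estimate with SE), with the mean difference of 4 leukocyte markers (solid line, 3.54) and 10 macrophage markers (dashed line, 2.68). Nlrp3 and Mefv lie above both lines, Aim2 between them, and the other 6 members below both.

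The mRNA of the cytokine substrates of the pathway and of their antagonists was measured as well. Il1b, which encodes the precursor of IL-1β, was at 0.0851, 1.15 and 0.304 FPKM in CFS, 0.536, 0.538 and 0.241 in CSS, 1.08, 5.44 and 0.470 in CFA, and 91.3, 59.6 and 78.7 in CSA. It rose by 5.60 ± 0.80 (log2, limma adjusted p = 2.5e-04) from CFA to CSA, beside 4.90 for Mefv, the largest of the 9 members, and by 6.52 without CFA mouse 72 and 4.88 without CFA mouse 74. Il18 was at 0.630, 1.40 and 0.956 FPKM in CFS, 1.36, 1.47 and 1.69 in CSS, 2.23, 2.19 and 1.51 in CFA, and 7.74, 9.28 and 14.7 in CSA, a rise of 2.33 ± 0.30 (limma adjusted p = 1.2e-04). The log2 ratio of Il18bp to Il18 was 0.83 ± 0.49 (SD, n = 3) in CFS, 0.16 ± 0.38 in CSS, -0.34 ± 0.29 in CFA and -0.19 ± 0.21 in CSA. It was lower in CFA than in CFS in every mouse, by 1.17 (two-sided exact permutation p = 0.1, the smallest possible, and 0.667 after adjustment over 8 tests), and differed by 0.15 between CSA and CFA (exact permutation p = 0.5). Il1rn, which encodes the IL-1 receptor antagonist, rose by 5.97 ± 0.69 (limma adjusted p = 5.9e-05) from CFA to CSA. In CFA it was at 0.0166, 1.17 (mouse 72) and 0.179 FPKM, on 2, 138 and 21 fragments. Its log2 ratio to Il1b was -2.16 ± 1.16 in CFA and -1.80 ± 0.47 in CSA (exact permutation p = 0.8), and the sign of this difference turned with a pseudocount of 1 (-0.79).

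**Figure D5:**
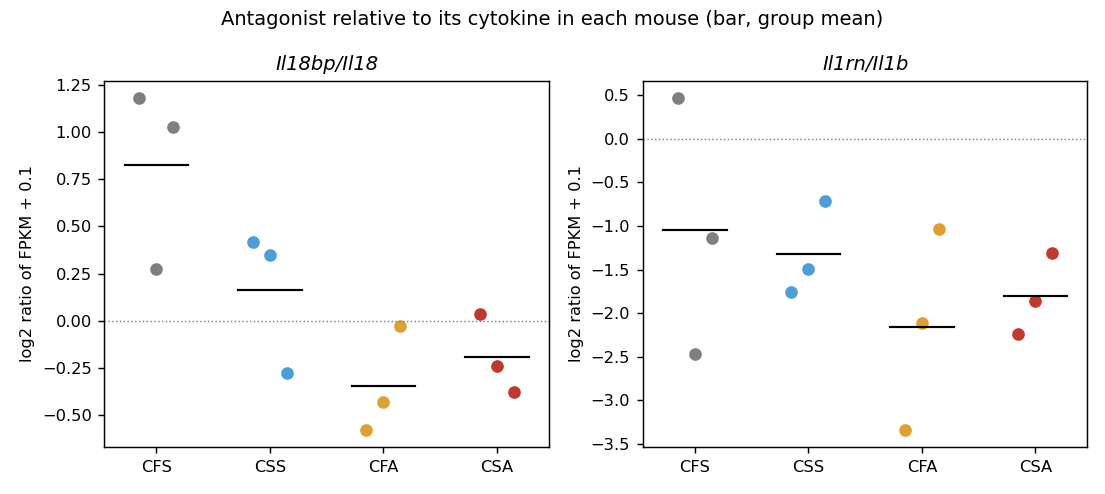
Log2 ratio of FPKM + 0.1 for Il18bp to Il18 (left) and Il1rn to Il1b (right) in each mouse, with bars at the group means. The Il18bp to Il18 means are 0.83, 0.16, -0.34 and -0.19 in CFS, CSS, CFA and CSA, and the Il1rn to Il1b values of CFA and CSA overlap.

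Other genes of the pathway were followed by role from CFA to CSA, and from each list up to 3 with the highest mean FPKM are named. In this comparison 8.95% of all tested features were called higher and 8.27% lower. Of 11 other sensors, 6 were tested and 6 were called higher, although 3 of these (Nlrp1b, Naip6 and Zbp1) passed the filter only through their CSA values. Zbp1, a sensor of Z-form nucleic acid, rose by 5.26, Ifi204, a DNA sensor, by 4.39, and Naip2, a partner of Nlrc4, by 2.67 (log2, limma adjusted p = 6.1e-06, 6.3e-05 and 2.0e-05). Of 13 genes for priming, ion flux and sensor licensing, 7 were called higher, among them the guanylate-binding protein gene Gbp2 (2.21 ± 0.31, limma adjusted p = 2.0e-04). Txnip, an inhibitor of thioredoxin that binds NLRP3, and Rela, an NF-κB subunit, had differences of -0.53 and -0.42 (limma adjusted p = 0.141 and 0.205). For Rela, CSA mouse 03 was at 18.0 FPKM, against 42.1 and 36.3 in the other CSA mice and 39.8 to 40.9 in CFA. Of 7 other caspases and gasdermins, 5 were tested and 2 called higher, among them Casp8, the initiator caspase of death receptors, at 1.71 (limma adjusted p = 2.4e-05). In these 2 lists Panx1 and Gsdme were tested only through their CSA values.

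Genes that act after the pore, 5 for membrane rupture and repair, gave 0 calls by limma from CFA to CSA, with 3 of 5 (Chmp4b, Chmp3 and Vps4a) at an unadjusted p under 0.05, beside 49% of tested features. Ninj1, which ruptures the membrane of dying cells, was at a mean of 41.2 FPKM in CFA and 37.0 in CSA (log2 difference -0.23 ± 0.26, limma adjusted p = 0.507). CSA mouse 03 was at 21.7 FPKM for Ninj1, against 42.5 and 46.7 in the other CSA mice and 38.4 to 43.6 in CFA. Chmp4b and Chmp3, subunits of the ESCRT-III complex that repairs the membrane, differed by 0.77 and -0.75 (limma adjusted p = 0.00101 and 2.2e-04), both under the fold limit and in opposite directions. Of 7 substrate cytokines and receptors, 6 were tested and 5 called higher, including Il1r1 (1.64, limma adjusted p = 6.2e-05), and 2 (Il18r1 and Il18rap) were tested only through their CSA values. Of 6 antagonists and decoys, 3 were called higher: Il1rn, the decoy receptor gene Il1r2 (6.02, limma adjusted p = 1.2e-04) and the protease inhibitor gene Serpinb1a (1.63, limma adjusted p = 5.8e-05), with Il1rn and Il1r2 tested only through their CSA values. In CFA Il1r2 was at 0.0962, 2.42 (mouse 72) and 0.247 FPKM. Card19 was at -0.49 (limma adjusted p = 0.233). For Card19, CSA mouse 03 was at 9.37 FPKM, against 25.9 and 24.3 in the other CSA mice and 24.0 to 26.2 in CFA. Of the genes tested in these 6 lists, 0 were called lower from CFA to CSA, beside 8.27% of tested features.

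Over the 12 libraries, the genes with the pattern most like each member were measured by the root mean square difference of gene-centred log2 values. Nlrp3 was closest to AI504432 (0.297) and Trim30b (0.321), Mefv to Havcr2 (0.336) and Trem1 (0.387), Aim2 to Cd177 (0.310) and March1 (0.329), and Nlrc4 to Tagap (0.177) and Tpd52 (0.198). Pycard was closest to Eef1akmt3 (0.235) and Rftn1 (0.237), Casp1 to Rai14 (0.181) and Cep85 (0.187), Casp4 to Arhgdib (0.177) and Ddx58 (0.209), Gsdmd to Uba7 (0.157) and Mov10 (0.178), and Il18bp to Cd274 (0.179) and Rnf213 (0.187). Among the members themselves, the neighbours Casp1 and Casp4 were the closest pair (0.303), and Nlrp3 was nearest to Aim2 (0.706).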

How the data were processed

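RNA-Seq of abdominal aorta from 12 male mice (4 groups of 3) was analysed. The authors deposited FPKM, 1 value per gene and mouse, with 0 sample columns left unused. The submitters' processing notes name HISAT2 2.0.5, StringTie 1.3.3b, featureCounts 1.5.0-p3 and the mm10 build, without their roles. Median-of-ratios factors were identical in all 12 libraries (1.014), so the deposited values already carry such a scaling. Symbols, positions and exon lengths came from GENCODE M21 (GRCm38) for 54409 features. FPKM times length gave 98.0% to 98.5% whole fragments (within 0.05, under 100 fragments), and their sum was taken as depth. Counting error limits the low values.

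Values were tested as log2(FPKM + 0.1) with limma 3.58.1 in R 4.3.3 (1 coefficient per group over all 12 libraries, eBayes with trend and robust) for the 14676 features with at least 1 FPKM in at least 3 libraries. The study used DEG-Seq, which needs counts, and limma replaced it with the same fold limit. The Benjamini-Hochberg adjustment ran over all tested features of a comparison, and calls needed both an adjusted p below 0.05 and a log2 fold change beyond 1.5 in size. Ratios were tested by exact permutation. The model was also run on simulated data, and the outcome is not given here. Summaries used Python 3.11.15 (numpy 2.4.6, pandas 2.3.3) and plots matplotlib 3.10.9.

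The members, role lists and marker lists were chosen with earlier results of these data known. All members are named, with the 3 most highly expressed genes of each role list, Il1b, Il18 and, for each member, the 2 most similar genes, except 1 gene of a role list that is not reported here. Protein sequences were planned and are not given here. Alternatives were a pseudocount of 1, other filters, scalings, variance models, weights, call rules, fits of the 2 groups compared, macrophage markers, and each mouse left out.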

Additional observations from a re-analysis of the deposited data

Results flagged for a closer look

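For 8 members and the cytokines Il1b and Il18, the genotype difference under Ang II was larger than that under saline by the interaction test (limma, Benjamini-Hochberg adjusted p under 0.05), beside 12.8% of tested features. Gsdmd, among the 8, did not pass in every other setting, with limma adjusted p-values up to 0.073. They included 0.0609 without CFA mouse 72 and 0.0563 with no filter. Mefv, Aim2, Nlrp3 and Nlrc4 were tested only through their CSA values. On the log2 scale the excess was 4.91 for Mefv, 3.55 for Aim2, 3.33 for Nlrp3, 2.54 for Il18bp, 2.06 for Nlrc4, 1.78 for Casp1, 1.6 for Casp4 and 1.34 for Gsdmd, the last under the fold limit. It was 5.42 for Il1b and 1.72 for Il18. With 1 mouse left out it ran from 4.69 to 6.33 for Il1b and from 4.34 to 5.80 for Mefv, both highest without CFA mouse 72. With a pseudocount of 1 it was 3.32 for Mefv, 2.51 for Aim2 and 2.63 for Nlrp3, and 1.09 for Nlrc4 and 1.48 for Casp4, both under the fold limit. The leukocyte markers moved in the same comparison (4 of 4 called higher), and their part in these values was not tested.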

How the results depend on the processing

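With a mean FPKM of at least 5, which left Casp1, Casp4 and Gsdmd to be tested, 3 members were called in CSA against CFA, 3 in CSA against CSS and 2 in the interaction, beside 5.81%, 6.76% and 5.76% of tested features called higher. With a pseudocount of 1, 6, 7 and 5 members were called, beside 6.26%, 7.56% and 6.08%. Leaving out 1 mouse at a time gave 6 to 8, 7 to 9 and 6 to 8, with Nlrc4 falling out of the test whenever a CSA mouse was left out. Equal library sums, another variance model, array weights and no filter gave 8, 9 and 7. Median-of-ratios scaling divides all libraries alike and tests nothing here. Casp4 lost its call in the interaction without CFS mouse 68 (1.48), CFA mouse 74 (1.45) or CSA mouse 03 (1.27), with a pseudocount of 1 (1.48) and with array weights (1.28). Il18 lost it without CFS mouse 69 (1.46), without CSA mouse 03 (1.46) and with array weights (1.32). Gsdmd gained it without CFS mouse 69 (1.51), without CSA mouse 03 (1.71) and with array weights (1.81), and Pycard without CSS mouse 55 (1.501). With a pseudocount of 1 Nlrc4 fell below the fold limit against CFA (1.01), against CSS (1.21) and in the interaction (1.09). Gsdmd lost its call against CSS without CSA mouse 01 (1.45).

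Directions turned only among differences that passed no test. Between CSS and CFS, Il1b came to -0.018 with a pseudocount of 1, Mefv to 0.028 and Il18bp to 0.002 with equal library sums, and Mefv to 0.045 with array weights. With 1 mouse left out, the ranges for CSS against CFS were -0.46 to 0.92 for Il1b, -0.23 to 0.29 for Mefv, -0.14 to 0.081 for Il18bp, -0.23 to 0.38 for Casp1, -0.008 to 0.34 for Gsdmd and -0.27 to 0.31 for Pycard, and for CFA against CFS -0.23 to 0.37 for Casp1. The log2 ratio of Il1rn to Il1b in CSA against CFA was -0.79 with a pseudocount of 1 and -0.23 to 0.93 with 1 mouse left out, and in CSS against CFS -0.99 to 0.48. Relative to leukocyte markers Nlrp3 turned to -0.39 with a pseudocount of 1, and Aim2 to 0.49 with macrophage markers. The cause was not tested. No paired analysis was possible because the groups share no replicate numbers.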
